A study of Mus musculus and Rattus norvegicus with 53 samples.

Results

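Sorted Schwann cells (SCs) of the distal nerve stump were compared between day 10 and day 4 after sciatic nerve transection, 3 libraries against 3. These 6 libraries, among 53 in the series and 35 of single nerves, were chosen by their labels alone, and the 3 libraries each of day 6 and day 8 from the same region served as context. The mice were tdTomato+ reporter animals in which a Cre active in the neural crest lineage switches on the fluorescent protein tdTomato, so that any cell with a history of that Cre can be sorted. All groups carried the same reporter alleles and were young adults. Day 4, 6, 8 and 10 groups had their nerve fully cut, and the 5 intact libraries came from uncut nerves. The study describes its intact nerves as the contralateral nerves of operated mice. By the labels, each library held the tdTomato+ cells of 1 nerve of 1 mouse, a different mouse for each distal library. Each was made with the Smart-seq2 protocol and gives raw read counts per gene.

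After a cut, the axons beyond the wound degenerate and SCs of the distal stump shed their myelin, lose myelin gene expression and turn into repair cells that clear debris, recruit macrophages and line the tracks for regrowing axons. In a fully severed nerve these cells stay without axons for days until fibres cross the bridge. Macrophages enter the stump during the first days and digest myelin together with the SCs. The comparison asks which genes drift within the distal stump once the injured state has been reached.

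A difference between the libraries other than the day has to be given first. All 3 day 4 libraries held Xist RNA, the transcript of the inactive X chromosome, at 334, 241 and 397 CPM (counts scaled to library size), and the Y-linked gene Ddx3y at no more than 0.0507 CPM. All 3 day 10 libraries had 0 Xist counts and held Ddx3y at 109, 125 and 139 CPM. Sex pattern and day therefore cannot be told apart in the comparison of these 6 libraries. At day 8, replicate 0 held Xist RNA only and replicates 1 and 2 held Y-linked RNA. At day 6, replicate 3 held Xist RNA only, whereas replicates 0 and 1, labelled as single nerves, held Xist at 204 and 124 CPM together with Ddx3y at 43 and 55.4 CPM. Values of the Xist-only libraries of days 6 and 8 are therefore given beside the main results, and the tests were also run without both mixed libraries. Of the 11039 tested genes with a position in the annotation, 384 (3.48%) lay on the X chromosome, against 34 of 915 located genes (3.72%) that were lower at day 10 and 35 of 809 (4.33%) that were higher without overlap of the libraries. The Y chromosome held 4 genes, all in the latter group.

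Across the 12 libraries, between 9595680 and 18972269 counts fell on genes (median 13439383) and between 12136 and 15205 genes had a count. Spike-in RNA gave 0 to 126 counts per library, too few to scale by. Of the 5 intact libraries, replicates 0 and 1 had only 10572 and 10042 genes with a count. In these, 46.7% and 48.4% of the counts fell on 50 genes, against 14.8%, 16.9% and 16.3% in replicates 3, 4 and 5. Intact means include all 5. The correlation of log2 CPM averaged 0.677 among day 4 libraries, 0.764 among day 10 libraries and 0.684 between the days, so libraries of different days were about as alike as those of day 4.

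Of 11718 genes tested with edgeR's quasi-likelihood test, 0 (0%) passed an adjusted p of 0.05 between day 10 and day 4, and the smallest adjusted p was 0.085. At an unadjusted p under 0.05, 398 genes (3.4%) were higher and 609 (5.2%) lower at day 10. In the fit of all 35 libraries the balance was the other way, with 294 higher and 156 lower of 12968 genes, 0 calls and a smallest adjusted p of 1. DESeq2, another count test, called 141 genes on the same counts, 83 higher and 58 lower. The smallest adjusted p values were those of Xist and Tsix, and the Y-linked Ddx3y, Eif2s3y, Kdm5d and Uty were also called. The DESeq2 count therefore includes the sex difference of the libraries. Some called genes, Ric3 and Ces2e among them, overlapped between the days. Without the filter on low counts edgeR called 4 genes, all lower at day 10: Stard8, Syt4, Stab1 and Fcna. Fitting the 6 libraries alone gave 4 calls, Fcna and the Y-linked Ddx3y among them, and leaving out day 4 replicate 0 gave 9. In 860 genes (7.34%) every day 10 library lay above every day 4 library, and in 964 (8.23%) every one lay below. Neighbouring days gave 0 calls in edgeR for day 6 against 4, day 8 against 6 and day 10 against 8, with 847, 305 and 146 genes at an unadjusted p under 0.05 and 131, 18 and 7 calls by DESeq2.

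A linear trend over all 12 libraries was detected in 3 genes (0.0256% of those tested), and all of them fell: Stab1, Fcna and Stard8. The edgeR adjusted p was 0.0114 for each. Stab1 encodes stabilin-1, a scavenger receptor best known from tissue macrophages and sinusoidal endothelium. Fcna encodes ficolin A, a secreted lectin of the complement system made by macrophages. Stard8 encodes a GTPase-activating protein with a lipid-binding START domain.

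Stab1 (mm9, chr14:31952199-31981827, minus strand) measured 298, 429 and 449 CPM at day 4 and 93.2, 55.9 and 77.8 CPM at day 10. Every day 10 library lay below every day 4 library, and the slope was -0.41 log2 units per day (SE 0.058). Fcna (mm9, chr2:25480186-25483550, minus strand) measured 334, 172 and 377 CPM at day 4 and 20.5, 20.9 and 30.8 CPM at day 10, with a slope of -0.64 per day (SE 0.091). Stard8 (mm9, chrX:96198587-96270067, plus strand) measured 131, 199 and 199 CPM at day 4 and 39.7, 33.8 and 24.5 CPM at day 10, with a slope of -0.44 per day (SE 0.060). Day 10 means were thus 5.18, 12.2 and 5.39 times lower than day 4 means for Stab1, Fcna and Stard8. In intact nerves the 3 genes averaged 50 ± 52, 15.9 ± 17.4 and 68 ± 44.3 CPM (SD, n = 5).

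The day 6 and day 8 libraries with Xist RNA only share the sex pattern of day 4. In them Stab1 was at 108 and 109 CPM, Fcna at 58.7 and 65.3 CPM and Stard8 at 81.3 and 45.1 CPM, all below the lowest day 4 library. Both libraries also lay below every day 4 library in 565 of the 964 genes (58.6%) that were lower without overlap. Over all genes tested the share was 10.2% (1196 genes). Both libraries were part of the trend fit, and the genes were called with the same day 4 libraries. This is therefore no separate test of the sex pattern. Leaving out both mixed day 6 libraries kept all 3 trend calls. With the log2 CPM of Xist as a covariate 0 genes had a trend, and the slopes became -0.36, -0.43 and -0.35 for Stab1, Fcna and Stard8. Xist RNA was in every day 4 library and in no day 10 library, so this fit cannot separate the sex pattern from the day. The calls also depended on single libraries: the count was 0 without day 10 replicate 1, 0 without day 10 replicate 3, 0 without day 4 replicate 2 and 1 without day 4 replicate 1, against 7 without day 10 replicate 0 and 6 without day 6 replicate 3. In the fit of all 35 libraries 0 genes had a trend.

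**Figure D1:**
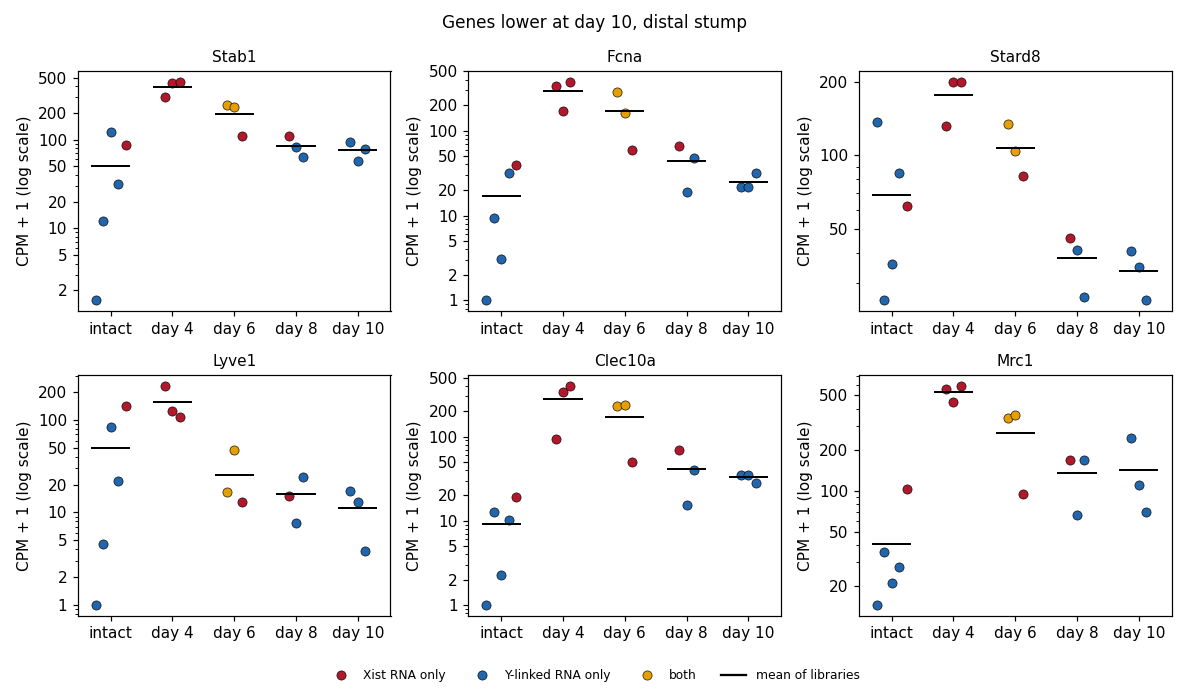
CPM plus 1 on a log axis for 6 genes in each single-nerve library of intact nerves and of the distal stump at days 4, 6, 8 and 10; points are libraries coloured by their Xist and Y-linked RNA, and bars are means. Stab1, Fcna and Stard8 are lower in every day 8 and day 10 library than in every day 4 library, and the red points of days 6 and 8 lie below those of day 4.

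The starts of the 3 genes are shown because their promoters are where the letters before their starts can be compared. The 250 bases before each RefSeq start (GRCm38.p6, gene strand) follow, with capitals marking GAGGAA, the core of sites bound by the macrophage factor PU.1, and TGCTGA, part of the sites of MAF proteins, on either strand.
Stab1 (chr14:31168642-31168891, minus): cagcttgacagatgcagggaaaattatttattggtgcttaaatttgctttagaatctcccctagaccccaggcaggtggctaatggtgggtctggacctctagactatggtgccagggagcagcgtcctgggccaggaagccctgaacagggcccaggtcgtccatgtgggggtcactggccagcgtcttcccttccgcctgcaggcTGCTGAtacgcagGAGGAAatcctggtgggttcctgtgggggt
Fcna (chr2:25627975-25628224, minus): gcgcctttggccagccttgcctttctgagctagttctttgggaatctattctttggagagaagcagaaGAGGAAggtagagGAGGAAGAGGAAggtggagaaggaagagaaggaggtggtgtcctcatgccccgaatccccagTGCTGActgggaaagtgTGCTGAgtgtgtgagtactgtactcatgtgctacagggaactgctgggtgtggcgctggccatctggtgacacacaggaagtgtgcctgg
Stard8 (chrX:99042331-99042580, plus): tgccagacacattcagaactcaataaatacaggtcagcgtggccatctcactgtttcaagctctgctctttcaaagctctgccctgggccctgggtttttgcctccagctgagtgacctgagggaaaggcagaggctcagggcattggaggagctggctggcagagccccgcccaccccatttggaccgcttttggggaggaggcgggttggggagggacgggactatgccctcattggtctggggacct

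GAGGAA occurred once before Stab1, 3 times before Fcna and not before Stard8, and 23.3% of 32851 mouse promoters held it in the same window on either strand. TGCTGA occurred once, in 2 places and not at all in the same order, against 16.1% of promoters. TGANTCA, the AP-1 site, was in none of the 3 windows and in 6.75% of promoters. Each window lies before a RefSeq start, which need not be the start of the mm9 span given above. Other starts of these genes were not searched. The matches describe letters, not binding.

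The genes next in line among those lower at day 10 missed the threshold in edgeR, and were picked by their p among genes whose libraries do not overlap. Several are known from macrophages. Lyve1, a hyaluronan receptor of lymphatic vessels and of some resident macrophages, had 232, 123 and 108 CPM at day 4 and 16.2, 11.8 and 2.83 CPM at day 10 (edgeR adjusted p = 0.272). The Xist-only libraries of days 6 and 8 were at 11.9 and 14.1 CPM, within the day 10 range. Clec10a, a C-type lectin of macrophages and dendritic cells, averaged 276 ± 162 CPM at day 4 and 31.8 ± 3.94 CPM at day 10 (SD, n = 3), with day 4 replicate 0 at 91.9 CPM well under the other two. Cfp, the complement factor properdin, averaged 539 ± 125 and 127 ± 32.5 CPM, and Maf, a transcription factor of resident macrophages among other cells, 192 ± 64.1 and 37.4 ± 18.6 CPM (SD, n = 3). Cfp and Stard8 were the X-linked genes among the 12 named as lower.

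The others are not known as macrophage genes. Syt4, a synaptotagmin of secretory vesicles, had 168, 175 and 209 CPM at day 4 and 11.3, 31.4 and 17.3 CPM at day 10, the second smallest p of all genes (edgeR adjusted p = 0.085). Intact nerves held it at 2.01 ± 2.15 CPM (SD, n = 5), so its day 10 level stood between the day 4 and the intact level. Wapal, which releases cohesin from chromosomes, averaged 60.4 ± 12.4 CPM at day 4 and 6.6 ± 2.25 CPM at day 10 (SD, n = 3). Rtn4, which encodes the reticulon Nogo, averaged 373 ± 123 and 129 ± 42.8 CPM, and Snx2, a sorting nexin of the retromer, 514 ± 266 and 171 ± 49.8 CPM. H2-K1, a classical MHC class I heavy chain whose reads may be shared with its relatives, averaged 1048 ± 194 and 473 ± 68.9 CPM.

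Of the lists with at least 5 tested members, macrophage markers lay furthest below the median of all genes. All 18 were measured, with a median log2 fold change of -1.13 against -0.05 over all genes tested, 16 negative values, and 12 members without overlap, all lower at day 10, where 8.23% of all genes were lower without overlap. None passed the adjusted threshold (smallest edgeR adjusted p = 0.418). Their summed level was 13660 to 16150 CPM at day 4 and 4338 to 8509 CPM at day 10, and 344 to 1569 CPM in intact nerves. At day 6 the mixed libraries held 13260 and 14930 CPM, near the day 4 level, and the Xist-only library held 3029 CPM. Day 8 libraries held 7183, 4213 and 8687 CPM. In bulk libraries fewer cells of a type and less RNA per cell cannot be told apart, and how macrophage transcripts came into a sort for tdTomato was not tested.

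The members differed in size. Mrc1, the mannose receptor, had 552, 444 and 584 CPM at day 4 and 243, 110 and 68.8 CPM at day 10. Emr1, the F4/80 antigen, had 321, 222 and 330 CPM at day 4 and 167, 91.7 and 80.5 CPM at day 10. Csf1r, the receptor of the growth factor that macrophages live on, averaged 722 ± 201 and 269 ± 113 CPM, and Lyz2, lysozyme, 7537 ± 2227 and 3604 ± 1601 CPM (SD, n = 3). Cx3cr1 and Ms4a7, the 2 positive members, named like Lyz2 after their values were seen, had values of 0.39 (SE 0.501) and 0.20 (SE 0.652) on the log2 scale. MHC class II genes, which macrophages and other presenting cells carry, had a median of -0.04 over 7 genes, with 0 members without overlap. Neutrophil markers were at 36.8 to 57.6 CPM in sum at day 4 and 7.79 to 43.5 CPM at day 10, and 3 of 5 T cell markers were at 0 in every library of both days.

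Genes of phagocytosis, lysosome and lipid efflux had a median of -0.61 over 32 members, 26 of them negative. Without overlap 7 were lower and 1 higher (8.23% and 7.34% of all genes). Their summed level was 53450 to 60340 CPM at day 4 and 17130, 52810 and 77930 CPM at day 10, so the sums overlapped. Hexa and Ctsl, a lysosomal glycosidase and a cathepsin, averaged 1057 ± 338 and 1059 ± 226 CPM at day 4 and 550 ± 91.8 and 578 ± 77.8 CPM at day 10 (SD, n = 3). Grn, progranulin, averaged 1209 ± 218 and 650 ± 87.2 CPM. Chemokines and cytokines had a median of -0.17 over 24 members, 13 negative and 11 positive. Of these, 4 were lower and 2 higher without overlap (8.23% and 7.34% of all genes). Ccl6 had 795, 1272 and 972 CPM at day 4 and 120, 346 and 217 CPM at day 10. Cxcl2 and Ccl4 also had every day 10 library below day 4. Ccl2, the chemokine with which SCs draw in macrophages, spread from 4.94 to 676 CPM at day 10 and gave no direction, since leaving out day 10 replicate 3 turned its sign. SCs and macrophages both express lysosomal genes, and the part of each was not tested.

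**Figure D2:**
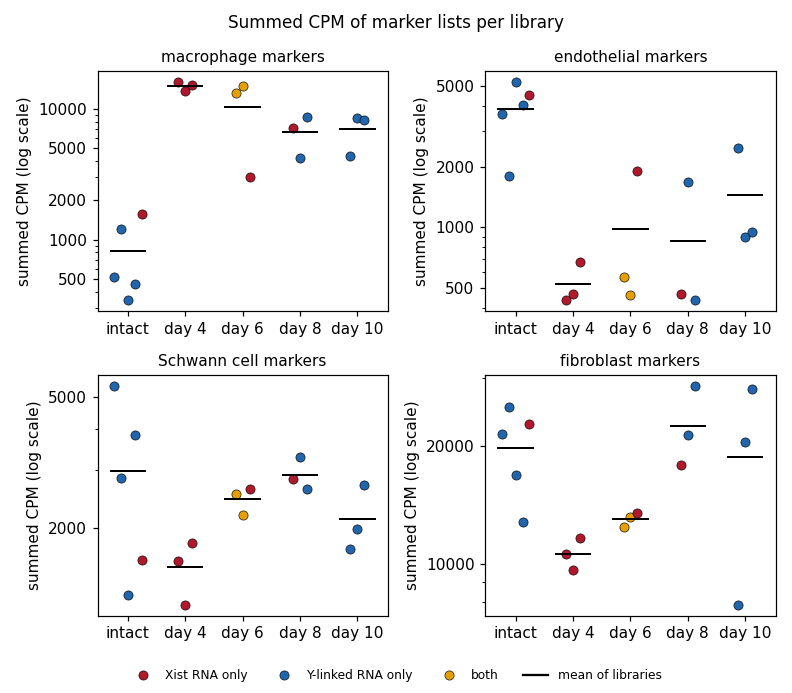
Summed CPM of the markers of 4 cell types per library on a log axis, with intact nerves at the left; points are libraries coloured by Xist and Y-linked RNA, and bars are means. Macrophage sums at day 4 (13660 to 16150) lie above all day 10 sums (4338 to 8509), endothelial sums lie the other way round, and Schwann cell sums overlap.

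Genes higher at day 10 also missed the threshold in edgeR, and those named were again picked by their p. Igfbp7, a secreted binding protein of insulin-like growth factors, had 281, 361 and 138 CPM at day 4 and 896, 751 and 674 CPM at day 10 (log2 fold change 1.57, SE 0.329, edgeR adjusted p = 0.379). Sparcl1, a matricellular relative of SPARC, had 285, 320 and 226 CPM at day 4 and 556, 794 and 867 CPM at day 10. Lxn, latexin, an inhibitor of carboxypeptidases, averaged 51.5 ± 15.9 and 148 ± 40.9 CPM (SD, n = 3). Jam2, a junctional adhesion molecule of endothelium and other cells, averaged 25.3 ± 10.4 and 166 ± 27.7 CPM. For Igfbp7, Sparcl1, Lxn and Jam2 both Xist-only libraries of days 6 and 8 lay above the 3 day 4 libraries. The same held for 481 of the 860 genes (55.9%) that were higher without overlap, against 1300 (11.1%) of all genes tested. The genes were picked with the same day 4 libraries, so this is no separate test of the sex pattern.

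**Figure D3:**
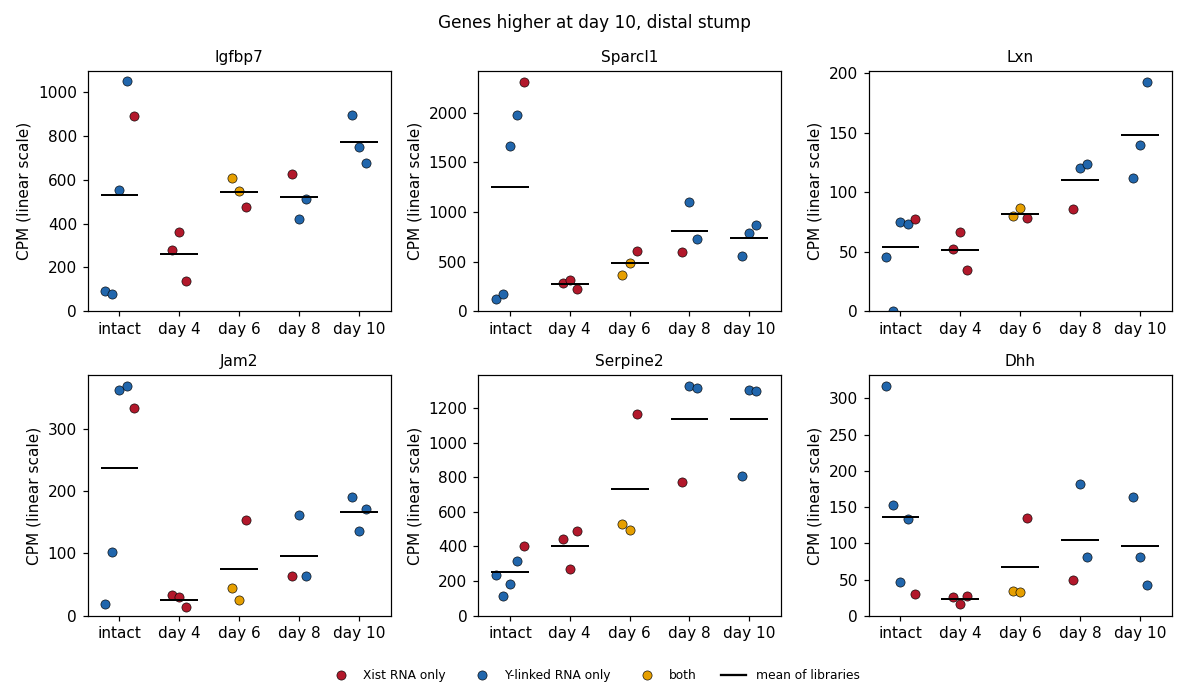
CPM on a linear axis from 0 for 6 genes that were higher at day 10, in each library of intact nerves and the distal stump; points are libraries coloured by Xist and Y-linked RNA, and bars are means. Igfbp7 lies between 138 and 361 CPM at day 4 and between 674 and 896 CPM at day 10, and Serpine2 and Dhh lie above all day 4 libraries in the Xist-only library of day 6.

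The other genes named as higher averaged under 4 CPM at day 4. Dpysl4, of the collapsin response mediator family, had 0 counts in all 3 day 4 libraries and 17.2, 6.88 and 6.47 CPM at day 10, at least 151-fold higher against a floor of 3 counts over the group. Upk1b, a tetraspanin of the urothelium, also had 0 counts at day 4 and was at 1.8, 1.55 and 7.54 CPM at day 10, at least 54.1-fold higher. Mettl15 and Tmem255b had counts in 1 of the 3 day 4 libraries and averaged 11.7 ± 1.79 and 24.1 ± 7.61 CPM at day 10 (SD, n = 3). Syt15, a synaptotagmin, averaged 2.1 ± 1.34 CPM at day 4 and 64.9 ± 49.5 CPM at day 10. Zfp719, a zinc finger protein, averaged 3.73 ± 1.28 and 38.2 ± 13.3 CPM, with 40.3 CPM as the mean of day 6. Ptprz1, a receptor phosphatase of glia, spread from 0.444 to 38.6 CPM at day 10. Means of day 6 were 16.4 CPM for Dpysl4, 8.87 for Upk1b, 14.4 for Mettl15 and 15.7 for Tmem255b. They were 62.2 CPM for Syt15 and 16.8 CPM for Ptprz1. The difference from day 4 was thus already there in the day 6 means of these genes. Ddx3y, the Y-linked gene described above, was the remaining one of the 12.

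Of the same lists, endothelial markers lay furthest above, with a median of 1.55 over 10 genes, all positive, and 4 without overlap (7.34% of all genes). Pecam1, the junction protein CD31, had 49.7, 63 and 168 CPM at day 4 and 580, 186 and 194 CPM at day 10. Esam, another junction protein, averaged 99.6 ± 23.9 and 307 ± 193 CPM, and Kdr, the main VEGF receptor, 35.9 ± 6.18 and 99.5 ± 83.2 CPM (SD, n = 3). The summed level was 434 to 669 CPM at day 4 and 2471, 898 and 948 CPM at day 10, so day 10 replicate 0 stood apart. Of the Xist-only libraries, that of day 6 held 1895 CPM and that of day 8 held 467 CPM, at the day 4 level. The mixed libraries of day 6 (568 and 463 CPM) and day 8 replicate 2 (435 CPM) were also at that level, and day 8 replicate 1 held 1677 CPM. Without day 10 replicate 0 the median was 0.84, and with the Xist covariate 0.60. Intact nerves had 1799 to 5276 CPM. Of the mural markers Rgs5, the pericyte gene, had 270, 132 and 135 CPM at day 4 and 572, 1158 and 912 CPM at day 10, while the 8 mural markers had a median of 0.49, and of 0.26 without day 10 replicate 1. Cldn1, the claudin of perineurial cells, had 90, 19.6 and 42.5 CPM at day 4 and 307, 188 and 176 CPM at day 10, and the 5 perineurial markers had a median of 0.93, with 0.59 without day 10 replicate 1, 0.60 without day 4 replicate 0 and 0.076 with the Xist covariate. The part of these cells in the other values was not tested.

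Schwann cell markers were measured in every library. The 10 SC markers summed to 1172 to 1804 CPM at day 4 and 1726 to 2703 CPM at day 10, with a median change of 0.39 and 1 gene higher without overlap (7.34% of all genes). Fibroblast markers summed to 9677 to 11650 CPM at day 4 and 7872 to 28080 CPM at day 10, above the SC markers in every library. Dcn, decorin, alone had 5487, 5142 and 5624 CPM at day 4 and 3935, 12970 and 17170 CPM at day 10. These sums compare different genes without correction for length.

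Genes that mark the dedifferentiated state overlapped between the days for the most part. Ngfr, the neurotrophin receptor p75 raised in repair cells, had 674, 449 and 855 CPM at day 4 and 527, 933 and 1399 CPM at day 10, against 59.4 ± 39.7 CPM in intact nerves (SD, n = 5). Jun, the transcription factor that drives the repair program, averaged 505 ± 104 and 480 ± 205 CPM (SD, n = 3), and its sign turned without day 10 replicate 0. Gdnf averaged 21.9 ± 14.4 and 14.3 ± 13.6 CPM, and Sox2, a factor of immature SCs, 26.5 ± 20.1 and 9.43 ± 6.76 CPM. The days overlapped in Ngfr, Jun, Gdnf and Sox2. Of 27 repair and immature SC genes 11 were positive and 16 negative, with a median of -0.15. Vim and Nes, intermediate filament genes of immature cells, averaged 2712 ± 1122 and 214 ± 63.8 CPM at day 4 and 1225 ± 389 and 112 ± 27.5 CPM at day 10, and Nes was lower in every day 10 library. Bdnf had 0, 0.173 and 0 CPM at day 4 and 2.94, 14 and 5.22 CPM at day 10.

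The myelin protein genes named here were under the intact mean at both days. Pmp22, a membrane protein of myelin, averaged 347 ± 25 and 437 ± 115 CPM (SD, n = 3) against 7356 ± 6108 CPM in intact nerves (SD, n = 5), and Mbp, myelin basic protein, 172 ± 84.8 and 92.6 ± 87.5 CPM against 4868 ± 2872 CPM. Prx, a myelin protein that links to the cytoskeleton, averaged 3.32 ± 3.29 and 6.45 ± 1.86 CPM. The days overlapped in Pmp22, Mbp and Prx. Dhh, the hedgehog ligand of SCs, had 25.8, 15.9 and 27.2 CPM at day 4 and 164, 81.6 and 42.7 CPM at day 10 (edgeR adjusted p = 0.439). The 18 myelin genes had a median of 0.34, with 2 higher and 0 lower without overlap (7.34% and 8.23% of all genes), a median of 0.52 without day 10 replicate 0 and of -0.50 with the Xist covariate.

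Among myelin transcription factors, Egr2, which drives myelination, had 41.7, 23.9 and 3.82 CPM at day 4 and 62.7, 71.9 and 38.9 CPM at day 10 and overlapped. Zeb2, needed for SC differentiation, averaged 275 ± 60.7 and 142 ± 12.3 CPM, and Yy1 32.6 ± 3.51 and 12.5 ± 1.8 CPM (SD, n = 3), both lower in every day 10 library. Pou3f2 was at 0.118 ± 0.205 CPM at day 4 and 6.31 ± 3.53 CPM at day 10, and its relative Pou3f1 at 6.93 ± 6.11 and 7.46 ± 6.01 CPM. Olig1, S100b and Pou3f1 also overlapped between the days.

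**Figure D4:**
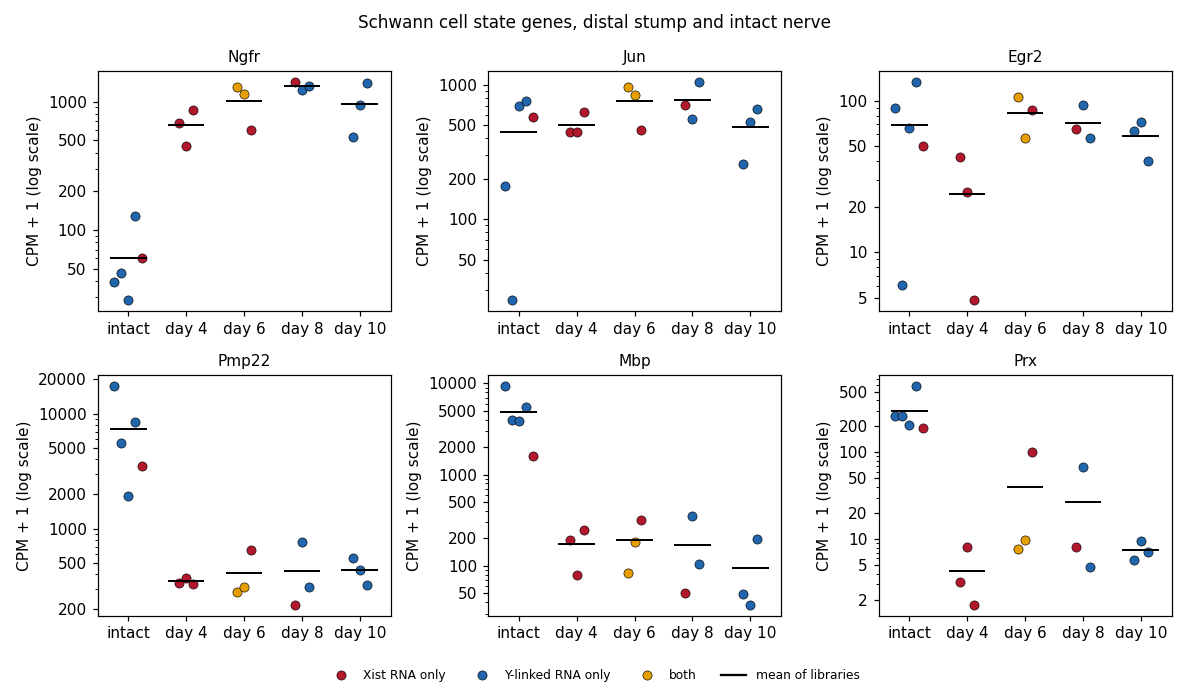
CPM plus 1 on a log axis of 6 Schwann cell state genes in each library of intact nerves and the distal stump; points are libraries coloured by Xist and Y-linked RNA, and bars are means. Ngfr and Jun overlap between days 4 and 10, and Pmp22 and Mbp lie under the intact mean in every stump library.

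Among genes of dividing cells 0 passed the threshold. Of 30 mitosis genes 23 had negative values between day 10 and day 4 (median -0.41), with 4 lower without overlap (8.23% of all genes). The median was -0.97 without day 10 replicate 0 and -0.097 without day 10 replicate 1. Mki67, the antigen Ki-67 of cycling cells, had 129, 115 and 183 CPM at day 4 and 53.6, 30.8 and 22 CPM at day 10. The summed level was 1695 to 1934 CPM at day 4, 573 to 1275 CPM at day 6, 504 to 737 CPM at day 8 and 2134, 585 and 1199 CPM at day 10, and day 10 replicate 0 held the highest sum. The median of the list was -1.05 between days 4 and 6 and 1.04 between days 8 and 10. DNA replication genes had a median of -0.14 over 28 members, of -0.74 without day 10 replicate 0 and of 0.052 without day 10 replicate 1.

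Of 19 basement membrane genes and receptors 16 were positive (median 0.35), with 2 higher and 0 lower without overlap (7.34% and 8.23% of all genes). The median was 0.19 without day 4 replicate 1 and 0.10 with the Xist covariate. Nid2, a nidogen that links laminin to collagen IV, averaged 96.4 ± 15.2 and 217 ± 90.5 CPM, and Col4a2, a collagen IV chain, 185 ± 66.3 and 407 ± 98.1 CPM (SD, n = 3). The 20 collagens had a median of 0.09. Fbln5, an elastic fibre protein, averaged 90.2 ± 42.1 and 317 ± 122 CPM, and Serpine2, a secreted protease inhibitor, had 445, 269 and 487 CPM at day 4 and 806, 1302 and 1297 CPM at day 10. Fbn1, fibrillin-1, went the other way, with 1428, 1477 and 2334 CPM at day 4 and 874, 698 and 850 CPM at day 10.

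Of 20 receptors and ligands of the ErbB, GDNF and neurotrophin systems 5 were higher and 0 lower without overlap (7.34% and 8.23% of all genes). Hbegf, a ligand of the EGF receptor, had 32, 14.2 and 31.8 CPM at day 4 and 169, 55.4 and 53.4 CPM at day 10, and the receptor Egfr 50.7, 36.9 and 12.1 and then 86.7, 69.4 and 96.6 CPM. Igf1, a growth factor of SCs and macrophages, averaged 594 ± 65.9 and 1146 ± 333 CPM (SD, n = 3). Gfra3, the artemin receptor, had 0, 0 and 0.449 CPM at day 4 and 23.2, 6.51 and 10.7 CPM at day 10. The other signalling lists had medians of 0.12 for 21 TGFβ genes and 0.58 for 24 genes of the Notch, Hedgehog and WNT pathways, where 3 were higher and 1 lower without overlap.

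Interferon-stimulated genes had a median of -0.47 over 27 members, with 5 lower and 2 higher without overlap (8.23% and 7.34% of all genes). Their median was -0.16 without day 4 replicate 2, -0.17 with the replicate block and -0.71 with the Xist covariate. MHC class I genes had a median of -0.46 over 13 members, with 2 lower without overlap, and of -0.23 without day 4 replicate 1. Irf7, a transcription factor of the interferon response, had 55.8, 60.1 and 100 CPM at day 4 and 18.4, 20.1 and 35.3 CPM at day 10. Cytosolic ribosomal protein genes had 68 of 74 negative values and a median of -0.85, but 0 members without overlap. Their sum at day 4 ranged from 4886 to 30940 CPM, with replicate 1 highest, and without that library the median was 0.51. It was -0.43 without day 10 replicate 0 and -1.35 without day 4 replicate 0. The list of 73 oxidative phosphorylation subunits had a median of -0.30 and 1 member without overlap, and left-out libraries gave medians from -0.73 (without day 4 replicate 0) to 0.74 (without day 4 replicate 1).

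The genes of the study's cluster 1, grouped by their expression ratios in the pooled day 6 libraries of the same series, had a median of -0.40 over 174 tested members. In this list 30 were lower and 4 higher without overlap (8.23% and 7.34% of all genes). Fcna, Clec10a and Cbr2, a carbonyl reductase, were the 3 with the smallest p, and Cbr2 had 245, 558 and 328 CPM at day 4 and 69.2, 66.3 and 44.8 CPM at day 10. Macrophage markers were also lower (12 of 18 without overlap, median -1.13), and their part in the values of cluster 1 was not tested. The median of cluster 1 was -0.098 without day 10 replicate 0, -0.70 without day 10 replicate 3 and -0.20 without day 4 replicate 1. Cluster 7 of the study had a median of 0.28 over 25 members, with 0 lower and 1 higher without overlap. Its sum was 254 CPM in day 10 replicate 0 against 23670 and 42450 CPM in the other two, and 5700 to 17070 CPM at day 4. Left-out libraries gave medians of cluster 7 from -0.56 (without day 10 replicate 3) to 0.80 (without day 4 replicate 0).

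**Figure D5:**
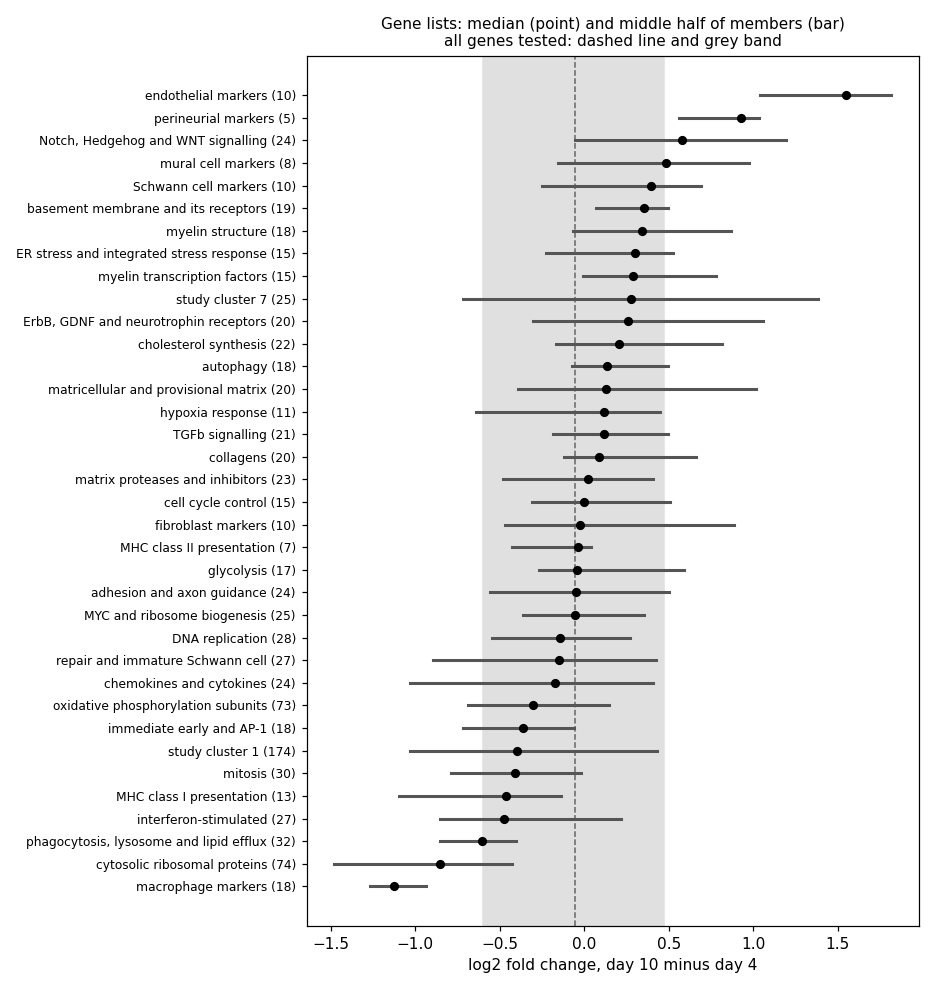
Median log2 fold change between day 10 and day 4 for each gene list with at least 5 tested members (number in brackets), with a bar from the lower to the upper quartile of its members; the dashed line and grey band give the same for all genes tested. Macrophage markers (-1.13) and endothelial markers (1.55) mark the ends.

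Whether the drift differed from that of the bridge was tested in the 35 libraries as a difference of differences, and 0 of 12968 genes (0%) passed in edgeR, with 415 at an unadjusted p under 0.05 and 206 calls by DESeq2. The smallest adjusted p was 0.26, in Pnpla7 and Slc41a2, a phospholipase and a magnesium transporter, which had log2 changes of -0.92 and 0.04 in the distal stump and -8.63 and -6.97 in the bridge. Leaving out bridge day 10 replicate 2 gave 8 calls. The labels give bridge and distal libraries of the same mice. A fit with the labelled animal as a block used days 4 and 10 only. It left out a labelled animal shared by a distal and a bridge day 10 library whose title numbers disagree. This fit gave 0 calls, which with so few libraries decide nothing. The sex pattern goes against the labels of shared mice at days 6 and 8. At day 8 bridge replicates 1 and 2 held Xist RNA only (149 and 372 CPM) and the distal ones Y-linked RNA. At day 6 bridge replicates 0 and 1 held 1 kind each where the distal ones held both. In the bridge the 3 day 4 libraries held Xist RNA only, and at day 10 replicate 2 held Xist RNA and replicates 0 and 3 Y-linked RNA. Bridge replicate 2 of day 10 (Xist at 216 CPM) thus matched no distal day 10 library, all of which held Y-linked RNA only. For the trend genes the distal change was -2.37, -3.61 and -2.43 and the bridge change -1.87, -1.18 and -0.92 in Stab1, Fcna and Stard8, and the differences of -0.50 (SE 1.22), -2.44 (SE 2.5) and -1.51 (SE 0.962) did not pass. Bridge levels of Stab1 were 400, 450 and 119 CPM at day 4 and 42.6, 91.5 and 130 CPM at day 10.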

How the data were processed

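Libraries were sequenced from single nerves. The authors aligned reads with TopHat2 2.0.11 to mm9, used HTSeq for counting, and deposited raw counts of 24016 genes and 92 ERCC spike-ins without normalization or filtering. Whether the counting used strand is not given in the sources used here, so that Xist and its antisense gene Tsix cannot be told apart. HTSeq categories (52.6% to 59.6% of the total was on no feature in the 12 libraries) and spike-ins were set aside. Genes entered the tests if 3 or more of the 12 distal libraries (days 4, 6, 8 and 10) reached 100 counts. TMM factors came from all 35 single-nerve libraries, and CPM is scaled by them. Tests used edgeR 4.0.16 (R 4.3.3), with Benjamini-Hochberg adjustment over all genes tested and a threshold of 0.05. DESeq2 1.42.0, other filters, scalings, fits and left-out libraries were alternatives. The Xist covariate and the fit without the mixed libraries were chosen after seeing the data. Since Xist RNA splits day 4 from day 10 fully, values with this covariate rest mainly on differences within days 6 and 8. They are no correction of day 10 against day 4 for the sex pattern.

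The members and lists were chosen with earlier results of these data known. Genes named are the 12 per direction with the smallest p without overlap of the libraries, the trend calls, up to 6 members per list with the smallest p (exceptions are said), the 5 per direction with the smallest adjusted p between regions, and markers used by the study, some of which are not reported here. Replicate numbers did not pair the libraries: deviations of same-numbered libraries from their day means had a mean correlation of -0.0056 over 14 pairs. Positions are from the GENCODE annotation of mm9, and promoters from RefSeq. The tests were checked on simulated counts in which 200 of 11718 genes changed. For day 10 against day 4, edgeR recovered 0 of them at a 2-fold change, 5 at 4-fold and 83 at 8-fold, with 3 false calls at 8-fold. The trend test recovered 0, 43 and 95. Most changes of 4-fold or less would thus be missed, and a gene without a call is not shown to be stable.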

Additional observations from a re-analysis of the deposited data

Results flagged for a closer look

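The 5 intact nerves alone were numerous enough to be searched for a library far from the rest, by comparing the distance between an extreme value and its neighbour with the whole spread (Dixon's test), which chance passes in about 1 of 20 groups. That rate holds for normally distributed values, which was not checked here. The search covered markers of the study and the summed macrophage, endothelial, SC and fibroblast markers. The highest value passed for Prx (579 CPM in replicate 4, next 262) and Sox2 (11.3 CPM in replicate 0, next 2.59). It also passed for Gdnf (2.64 CPM in replicate 4, next 0.0998) and Olig1 (0.0509 CPM in replicate 4, next 0). Gdnf was at 0 in replicates 0, 1 and 3. For Olig1 the value is 1 read against 0 in the other libraries, on which no library can be said to stand apart.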

How the results depend on the processing

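At this spread between libraries (biological coefficient of variation 0.727), counts of calls depended on tool and library, and the cause was not tested. For day 10 against day 4, edgeR called 0 genes, DESeq2 141, edgeR without a filter 4 and edgeR on the 6 libraries of these days alone 4. Leaving out single libraries gave 0 to 9 (9 without day 4 replicate 0, 1 without day 8 replicate 0). The count was 0 with the replicate block, which could not stand for a pairing since the labels name different mice. The trend count of 3 became 136 with DESeq2, all 3 genes included, and 0 with the fit of all 35 libraries, 0 with the Xist covariate and 0 with the replicate block, and ranged from 0 to 7 over left-out libraries. DESeq2 gave 131 calls between days 6 and 4, 18 between days 8 and 6 and 7 between days 10 and 8, and left-out libraries gave 0 to 12 (12 without day 4 replicate 0), 0 to 1 (1 without day 8 replicate 0) and 0. For the difference from the bridge, DESeq2 gave 206 and left-out libraries 0 to 8.

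Signs turned for genes of small change or the Y-linked gene. With the replicate block, log2 values became -0.39 for Ccl2, 0.15 for Jun and -0.31 for Pou3f1. With the Xist covariate they became -2.83 for Ddx3y, 0.038 for Gdnf, -0.85 for Pmp22, -0.51 for Pou3f1 and -1.16 for Prx. Over left-out libraries the values ranged from -1.24 to 0.93 for Ccl2, -1.73 to 0.072 for Gdnf, -0.37 to 0.23 for Jun and -0.78 to 1.13 for Pou3f1. The macrophage median was -0.69 with the replicate block, and the perineurial median 0.076 with the Xist covariate.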

Other observations

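Hypoxia-response genes held both directions. Epas1, which encodes HIF-2α, had 58.2, 48.4 and 7.79 CPM at day 4 and 228, 124 and 131 CPM at day 10, and Ndrg1 had 154, 110 and 175 CPM and then 401, 290 and 296 CPM, whereas Vegfa had 11.4, 7.63 and 24.9 CPM and then 0.285, 2.51 and 0.189 CPM. None passed the edgeR threshold (adjusted p = 0.432, 0.427 and 0.602).

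Stress genes of the endoplasmic reticulum also differed in sign. Hspa5, the chaperone BiP, had 1135, 775 and 1183 CPM at day 4 and 1495, 1605 and 1611 CPM at day 10, while Atf4 had 82.2, 109 and 105 CPM and then 46.4, 67.4 and 65.6 CPM. The median of the 15 genes was 0.30, but 0.035 without day 10 replicate 1, 0.070 without day 10 replicate 3, 0.070 without day 4 replicate 0 and -0.12 with the replicate block. Autophagy genes (median 0.13 over 18), cholesterol synthesis (0.20 over 22), glycolysis (-0.04 over 17), cell cycle control (0.00 over 15), MYC and ribosome biogenesis (-0.06 over 25), matrix proteases and inhibitors (0.02 over 23), matricellular genes (0.13 over 20) and adhesion and axon guidance (-0.05 over 24) lay near the median of all genes. Immediate early genes had a median of -0.36 over 18, and of -0.10 without day 4 replicate 2 and -0.63 without day 10 replicate 1, with Ier3 at 72.6, 136 and 64.1 CPM at day 4 and 32.1, 33 and 31.1 CPM at day 10.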
